A study of Homo sapiens with 13 samples.

Results

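Knockdown of WIZ was set against chemical inhibition of the enzymes that WIZ binds, in HEK293T cells, an established line from human embryonic kidney that carries the SV40 large T antigen. The comparison took every WIZ siRNA and UNC0638 replicate that had been hybridised in both dye orientations, which gave 8 of the 13 Agilent 2-colour arrays of the series. For WIZ, cells received WIZ siRNA or control siRNA by lipid transfection and were taken at 72 h, in 2 biological replicates on 4 arrays. For the enzymes, cells received 1 µM UNC0638 or an equal volume of DMSO for 48 h, and replicates 1 and 2 of the 5 made lay on 4 arrays. Each replicate had a first array with the treated RNA in Cy3 and the control RNA in Cy5, and a dye-swap array with the dyes exchanged. The sources used here do not say how many siRNA sequences were used against WIZ or how much WIZ protein was left. The difference between the treatments holds agent, delivery, control and hours of exposure together, and these cannot be told apart.

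G9a (gene EHMT2) and GLP (gene EHMT1) are paired methyltransferases. Together they add 1 or 2 methyl groups to lysine 9 of histone H3, a modification found at silenced genes. UNC0638 occupies the substrate site of both enzymes and blocks their catalysis. WIZ is a protein with several zinc fingers that is bound to the complex, links it to the corepressors CTBP1 and CTBP2 and has been found at many chromatin sites. The inhibitor acts on catalysis and leaves the proteins in place, while the knockdown removes a partner of the enzymes.

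Median spot brightness on the 8 arrays was 320 to 415 in Cy3 (local background 28 to 30) and 447 to 638 in Cy5 (60 to 68), and 58.5% to 92.7% of probes were well above background. Of 15 markers of HEK293T cells, 14 were above background in the control RNA on all 8 arrays, the exception being PAX8 on 7. Of 37 blood cell markers 20 were so, of 20 fibroblast markers 13 and of 31 liver-type genes 8, with median log2 brightness of 7.42, 8.42 and 6.93 against 14.7 for the HEK293T markers and 8.10 for all probes. The dye had a large effect on single arrays. Turned to treated over control, the first and the dye-swap array of a WIZ siRNA replicate had r of -0.48 and -0.36 across 31533 features, and those of an UNC0638 replicate 0.01 and 0.02. An additive dye effect of equal size drops out when a swapped pair is averaged, while an unequal effect leaves a part that replicates can share. The SD of the log2 ratios was 0.36 and 0.31 on the first WIZ siRNA arrays and 0.27 and 0.25 on their dye-swap arrays. On the UNC0638 arrays it was 0.22 to 0.24. The averaged replicates correlated at 0.73 for WIZ siRNA and 0.46 for UNC0638. The share of a remaining dye effect in these values was not tested. Every value below is such an average, as a log2 ratio of treated over control, unless an array is named. The log10 ratios of the authors' deposited table run the other way on these 8 arrays, as control over treated, and the direction used here rests on the dyes in the labels and on reading the first channel of the files as Cy3. The files do not name the dye of a channel, and under that reading WIZ was low on all 4 WIZ siRNA arrays.

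WIZ itself checked the labels and the direction of the WIZ siRNA arrays. Its log2 ratios were -2.26 and -1.97 in the WIZ siRNA replicates and 0.03 and -0.12 in the UNC0638 replicates. Being near 0 with UNC0638, WIZ cannot check the direction of the UNC0638 arrays, which rests on the dyes in the labels and the reading of the channels. The WIZ siRNA values lay far below the UNC0638 values on all 8 arrays, with 23.1% of the control level left after knockdown. The mean was -2.12 ± 0.21 (SD, n = 2) with WIZ siRNA and -0.05 ± 0.11 (SD, n = 2) with UNC0638, a difference of -2.07 (SE 0.11, limma adjusted p = 6.89e-05). The probe lies at chromosome 19, 15532937 to 15532996, on the minus strand of build 37.1.

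EHMT2, the gene of G9a, gave 0.34 and 0.28 with WIZ siRNA and 0.12 and -0.18 with UNC0638. The difference was 0.34 (95% interval 0.10 to 0.58) and did not pass (limma adjusted p = 0.131). Against control siRNA EHMT2 passed (limma adjusted p = 0.0399), but its sign followed the orientation, at 1.23 and 0.73 on the first arrays and -0.56 and -0.17 on the dye-swap arrays. EHMT1, the gene of GLP, gave -0.12 and -0.10 against 0.10 and -0.04, a difference of -0.14 (95% interval -0.33 to 0.04, limma adjusted p = 0.407), and 2 of its 4 other probes had the opposite sign. Across 34 genes of the histone H3 lysine 9 methylation machinery, 0 lay higher with WIZ siRNA than with UNC0638 and 2 lay lower. These were WIZ, the target of the siRNA, and ZNF518A, a zinc finger gene whose product has been linked to the same complex. The 2 are 5.88% of the list, near the 4.42% of all features that differed. ZNF518A had ratios of -0.07 and -0.03 against 0.29 and 0.44, a difference of -0.42 (SE 0.08, limma adjusted p = 0.0295).

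More features lay lower than higher with WIZ siRNA against UNC0638, a balance that turned in 2 settings. In limma, 1393 of 31533 features differed (4.42% of those tested), 434 higher with WIZ siRNA (1.38%) and 959 lower (3.04%). Without UNC0638 replicate 1 there were 2231 higher and 1931 lower, and with the first arrays alone 2757 higher and 2159 lower. Past 2-fold there were 103 lower and 1 higher. At an unadjusted p under 0.05 there were 5869, and replicate values of the treatments did not overlap for 15568 features (49.4%). The means had opposite signs for 1034 of the 1393 features, and the difference had the same sign in both dye orientations for 1296. Each treatment on its own moved more or fewer genes. WIZ siRNA changed 2850 features (9.04%), 1170 up (3.71%) and 1680 down (5.33%). UNC0638 in replicates 1 and 2 changed 1363 (4.32%), 656 up (2.08%) and 707 down (2.24%).

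How many features passed differed widely between settings. With 2 replicates a treatment the fit has 2 residual degrees of freedom, and much of its spread is shared across features. With all 9 replicates of the series in the fit, 162 features differed, 5 higher and 157 lower, and with the authors' own log2 ratios there were 235, 8 higher and 227 lower. With the authors' log10 table, which had values for 10276 features, 238 differed, 31 higher and 207 lower. Of the 1393 features, 162 and 232 passed again in the first 2 of these settings. The fit with all 9 replicates estimates the same differences from the same 4 replicates with another spread, so their direction there is fixed. With the authors' log2 ratios all 1393 kept their direction, and in the table all 639 with a value did and 221 passed. Leaving out WIZ siRNA replicate 1 or 2 gave 597 and 622, and leaving out UNC0638 replicate 1 or 2 gave 4162 and 2768. Median centring in place of loess gave 1356, with 252 higher and 1104 lower.

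**Figure D1:**
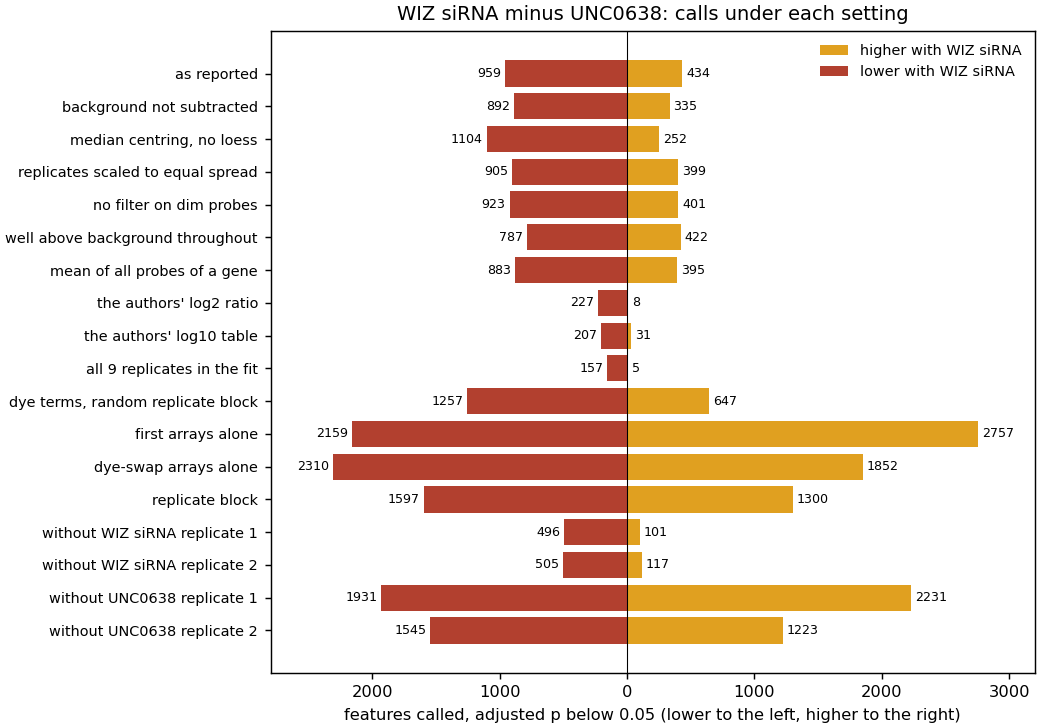
Number of features called in limma (adjusted p below 0.05) for WIZ siRNA minus UNC0638 under each setting, with features lower under WIZ siRNA drawn to the left and higher to the right. The reported fit has 959 lower and 434 higher, and the fits with all 9 replicates or the authors' log2 ratios have few features higher, at 5 and 8.

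Of the 10 features with the largest lower differences, WIZ aside, 4 rose with UNC0638 and did not pass with WIZ siRNA, and 5 were called in opposite directions. MAT1A, the liver enzyme that makes S-adenosylmethionine, the methyl donor of methyltransferases, had ratios of 2.91 and 3.21 with UNC0638 and 0.20 and 0.06 with WIZ siRNA. It rose 8.35-fold with the inhibitor in replicates 1 and 2, where replicates 3 to 5 had log2 ratios of 1.69, 1.65 and 1.85, and the difference was -2.93 (SE 0.11, limma adjusted p = 2.33e-05). ALOX15B, a lipoxygenase of arachidonic acid, lay at 3.30 and 2.57 with UNC0638 and at 0.17 and 0.19 with WIZ siRNA, a difference of -2.75 (SE 0.19, limma adjusted p = 0.000252). Both UNC0638 replicates were high and neither overlapped the WIZ siRNA values, which the choice of the genes with the largest differences required. The neuropeptide gene GRP (1.93 and 1.90 against -0.06 and -0.14) and the lung cytochrome P450 gene CYP2F1 (1.80 and 1.85 against -0.20 and -0.15) gave the same picture, though control RNA for GRP was above background on 2 of 4 control siRNA arrays.

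The opposed features among these fell with WIZ siRNA and rose with UNC0638. CARMIL2, a regulator of actin capping, lay at -1.19 and -1.31 with WIZ siRNA and at 1.32 and 0.83 with UNC0638, a difference of -2.33 (SE 0.14, limma adjusted p = 0.000132). NEFH, the heavy neurofilament chain of axons, lay at -1.85 and -1.77 against 0.44 and 0.25, a difference of -2.16 (SE 0.09, limma adjusted p = 2.33e-05). The other probes of CARMIL2 and NEFH gave smaller differences of the same sign, at -1.62 and -0.65. KRTAP19-1, a hair keratin-associated protein gene, and the noncoding transcript LOC283352 had differences of -2.05 and -1.99, with UNC0638 means of 1.57 and 1.34 and WIZ siRNA means of -0.48 and -0.65. In these genes both WIZ siRNA replicates lay below 0 and both UNC0638 replicates above it, which calls in opposite directions nearly require. LYG2, a lysozyme-like gene, had a difference of -2.25 in its brightest probe (-0.18 and -0.44 against 1.92 and 1.96), and its other probe gave 0.22, so its probes disagree in direction. In UNC0638 replicates 3 to 5 CARMIL2 lay at -0.03, 0.24 and 0.57, below replicates 1 and 2.

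Genes higher with WIZ siRNA than with UNC0638 differed by less. NKX6-2, a homeobox factor of the neural tube and of oligodendrocytes, was the 1 called feature past 2-fold, with ratios of 0.44 and 0.35 against -0.95 and -0.80, a difference of 1.27 (SE 0.08, limma adjusted p = 0.000187). Among the next were developmental transcription factor genes, namely DMRTA2 with a difference of 0.81, HAND2 with 0.77 and TBX18 with 0.71, beside PLCXD1 (0.85), the translation factor gene EIF5A2 (0.76), DHRS3, a retinal reductase (0.73), B4GALNT4 (0.71) and the readthrough transcript PDXDC2P-NPIPB14P (0.70). For these the limma adjusted p ran from 0.00115 for DMRTA2 to 0.0155 for B4GALNT4. DMRTA2 under WIZ siRNA read -0.15 and -0.21 on the first arrays and 0.59 and 0.60 on the dye-swap arrays, and B4GALNT4 read 0.81 and 0.62, then -0.60 and -0.19, so both changed sign with the orientation. PDXDC2P-NPIPB14P was below 0 in UNC0638 replicates 1 and 2 (-0.52 and -0.78) and above 0 in replicates 3 to 5 (0.17, 0.36 and 0.07). In the fit with all 9 replicates NKX6-2 and HAND2 passed and the others named here did not.

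The responses to the treatments were weakly correlated over all features and shared directions in part. The means correlated at 0.11 across 31533 features, of which 27791 were called in neither comparison. The replicates correlated at 0.73 with WIZ siRNA and at 0.46 with UNC0638. The means had the same sign for 52.5% of features. Features are not independent replicates, so this is a description. No control RNA is shared between the comparisons as labelled. Both comparisons called 471 features, which is 16.5% of the WIZ siRNA calls and 34.6% of the UNC0638 calls. Of these, 329 moved the same way (1.04% of features tested), 259 down and 70 up. The other 142 moved in opposite ways (0.45%), 129 down with WIZ siRNA and up with UNC0638, and 13 up with WIZ siRNA and down with UNC0638. All 142 opposed features also passed in the test of the difference, as did 42 of the 329. Called means of opposite sign add up in the difference of the same fit. The passing of the 142 was thus nearly fixed in advance and is no further support for them. In the fit with all 9 replicates 10 of the 129, 0 of the 13, 23 of the 259 and 2 of the 70 kept both calls. Without WIZ siRNA replicate 1 or 2, 86 and 121 features changed the same way in both and 54 and 67 in opposite ways, and without UNC0638 replicate 1 or 2 these were 548 and 752, and 344 and 309.

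**Figure D2:**
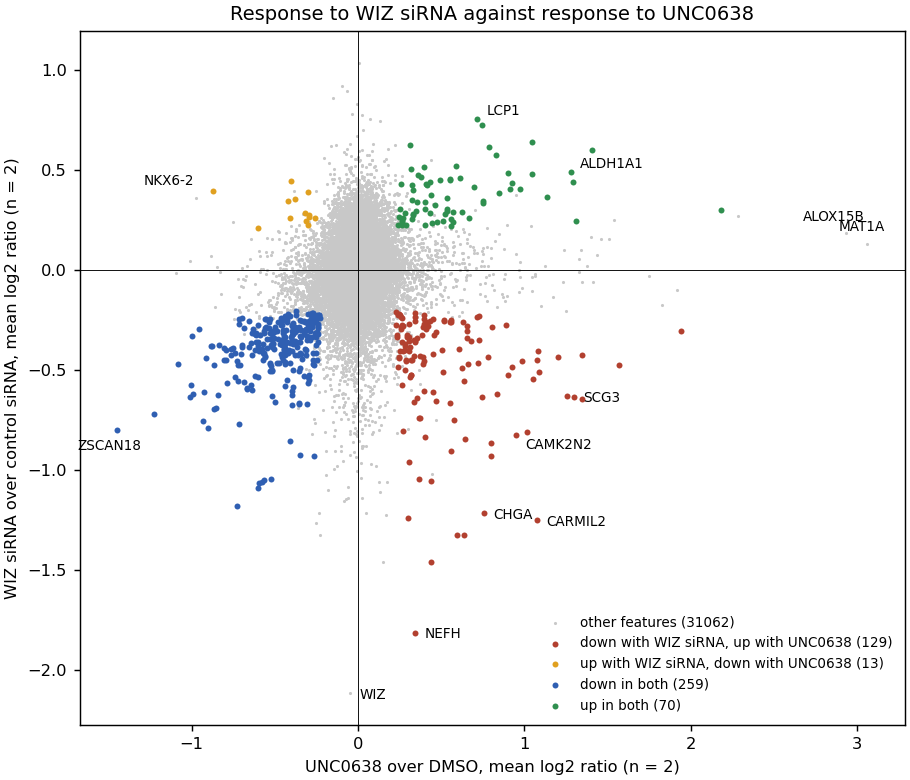
Mean log2 ratio of treated over control with WIZ siRNA (vertical axis, n = 2) against UNC0638 (horizontal axis, n = 2) for 31533 features, with those changed in both comparisons in colour. Of the coloured points, 259 fall in both, 70 rise in both, 129 fall with WIZ siRNA and rise with UNC0638, and 13 do the reverse.

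The directions were uneven on the UNC0638 side. Among its falls, 17.3% had a WIZ siRNA mean above 0, and among its rises 53.4% had a WIZ siRNA mean below 0. UNC0638 replicates 3 to 5, which the comparison did not use, were hybridised with the treated RNA in Cy5 alone and served to look at the same directions in other samples. The mean of replicates 3 to 5 was above 0 for 125 of the 129 features that fell with WIZ siRNA and rose with UNC0638, where 47.1% of all features lay above 0. It was below 0 for 12 of the 13 opposed the other way and for 224 of the 259 that fell in both, and above 0 for 66 of the 70 that rose in both. In all 4 classes most features had in replicates 3 to 5 the direction called in replicates 1 and 2.

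**Figure D3:**
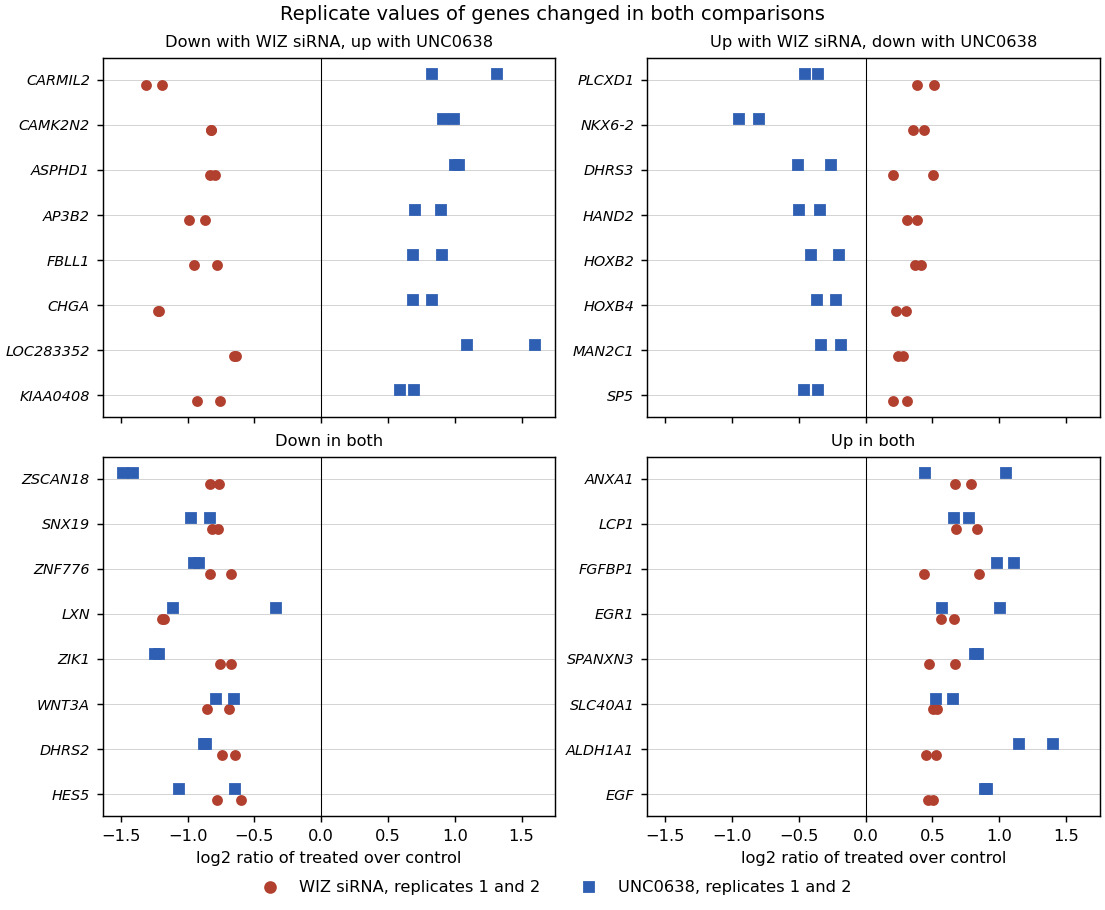
Log2 ratios of treated over control in each replicate (2 with WIZ siRNA, 2 with UNC0638) for the 8 genes of each direction class with the largest smaller mean. In the upper panels the replicates of the treatments lie on opposite sides of 0, and in the lower panels on the same side, which follows from how the classes were made.

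The neuronal genes listed lay lower with WIZ siRNA than with UNC0638. The list was made with earlier results of these data known, so its counts are a description. Of 62 measured, 29 lay lower and 2 higher, against 3.04% and 1.38% of all features. The median difference was -0.33 against 0.02 over all features. Over all features 5.33% fell with WIZ siRNA and 2.08% rose with UNC0638. In the list WIZ siRNA lowered 22 and raised 2, and UNC0638 raised 22 and lowered 0. The 2 groups of 22 shared 11 genes, each of them down with WIZ siRNA and up with UNC0638, and 0 genes changed the same way in both. In bulk RNA, fewer cells that express a gene and less RNA per cell cannot be told apart. In the fit with all 9 replicates 19 lay lower and 0 higher, and with the authors' log2 ratios 21 and 0.

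Genes of secretory granules were among those opposed. CHGA, the chromogranin of neuroendocrine granules, lay at -1.21 and -1.22 with WIZ siRNA and at 0.68 and 0.83 with UNC0638. The WIZ siRNA replicates held 43.0% of the control level and the UNC0638 replicates 1.69 times it, and the difference was -1.98 (SE 0.08, limma adjusted p = 2.33e-05). On single arrays CHGA was -1.59 and -1.56 with WIZ siRNA in Cy3, -0.83 and -0.88 in Cy5, and 0.67 to 0.84 on the 4 UNC0638 arrays, so the sign was the same in both orientations. SCG3, which sorts chromogranins into granules, lay at -0.60 and -0.67 against 1.45 and 1.14, a difference of -1.93 (SE 0.11, limma adjusted p = 8.30e-05). The granule genes VGF (-1.57 and -1.36 against 0.45 and 0.43) and CHGB (-0.45 and -0.60 against 0.98 and 0.82) were opposed in the same way.

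Genes of the cytoskeleton and the synapse differed in which treatment moved them. NEFH, described above, was opposed, and so were FBXL16, an F-box gene active in brain (-1.50 and -1.15 against 0.59 and 0.59), and BEX1, a small signalling adaptor (-0.58 and -0.51 against 1.07 and 1.04). The synaptic complexin CPLX1 (-1.31 and -1.34) and the microtubule regulator STMN3 (-1.16 and -1.27) fell with WIZ siRNA and did not pass with UNC0638, where both were below 0. STMN2, a microtubule regulator of growing axons (0.95 and 0.99), and SYN1, a synapsin of synaptic vesicles (1.08 and 0.60), rose with UNC0638 and did not pass with WIZ siRNA. The 2 exceptions that lay higher with WIZ siRNA were the vesicle gene SV2A (0.62 and 0.48 against 0.13 and 0.04) and TMEM59L (0.24 and 0.23 against -0.07 and -0.18).

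**Figure D4:**
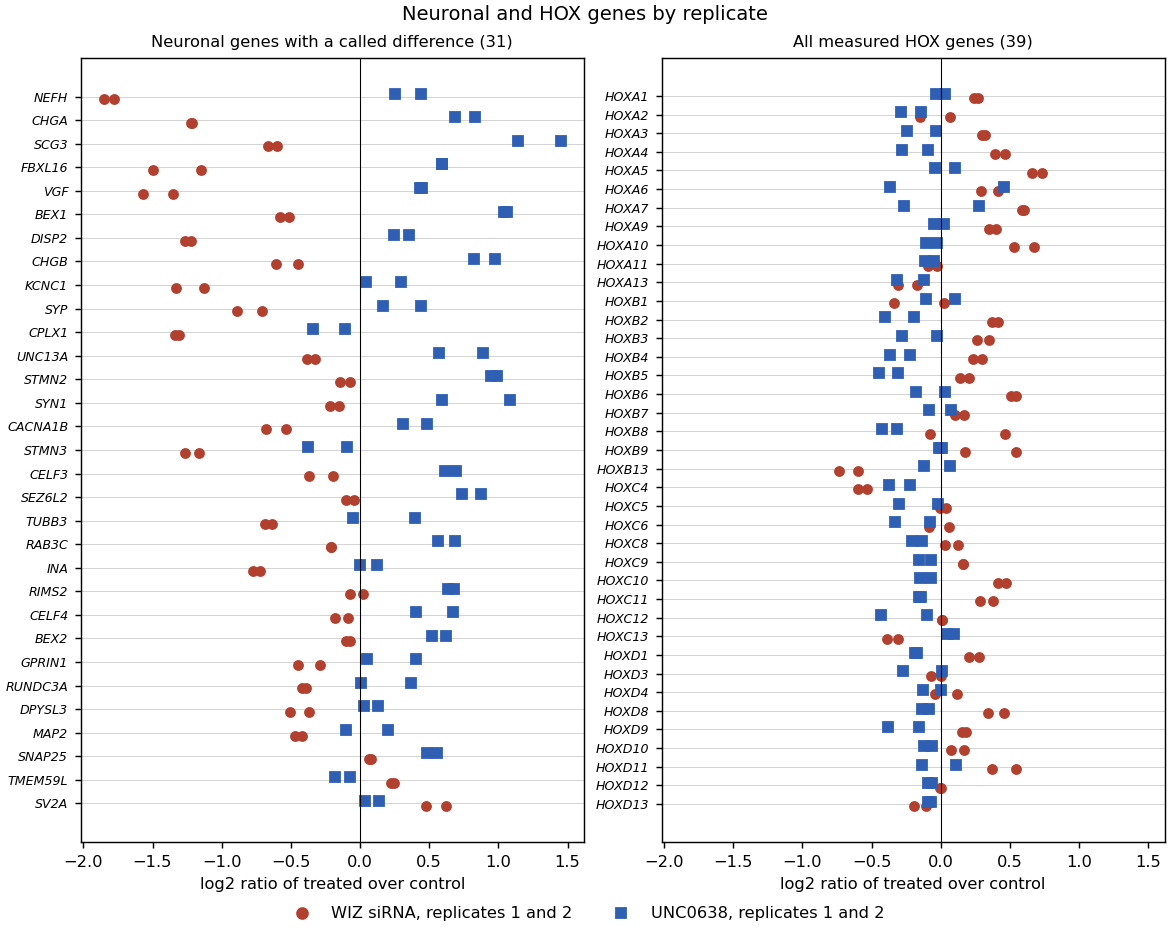
Log2 ratios of treated over control in each replicate for the 31 neuronal genes with a called difference (left) and all 39 measured HOX genes (right). In 29 of the 31 neuronal genes the WIZ siRNA circles lie left of the UNC0638 squares, and in most HOX genes they lie to the right.

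Outside the neuronal list, the opposed genes with the largest smaller mean included CAMK2N2, an inhibitor of the kinase CaMKII (-0.82 and -0.83 against 0.99 and 0.91), ASPHD1 (-0.83 and -0.80 against 1.03 and 1.00) and AP3B2, the neuronal subunit of an adaptor complex for vesicles (-0.99 and -0.87 against 0.90 and 0.71). FBLL1, a fibrillarin-like gene of brain, followed at -0.95 and -0.78 against 0.91 and 0.69. In each the replicates of a treatment lay close together. The treatments lay on opposite sides of 0, as the class requires. The other probe of FBLL1 gave a difference of -1.02, against -1.66 for the probe used. KIAA0408 (-0.93 and -0.76 against 0.69 and 0.59) has a probe that also matches C6orf174 and is not specific to it.

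REST is the repressor that keeps neuronal genes off in other cell types, and it binds a site called RE1 whose left and right arms can stand together or apart. REST RNA was 0.15 and 0.08 with WIZ siRNA and 0.12 and 0.10 with UNC0638. Of 12 genes of REST and its corepressors, 0 differed between the treatments in limma, with 2 at an unadjusted p under 0.05. RCOR1, a scaffold of the corepressor complex, was the 1 of the 12 that fell with WIZ siRNA (-0.33 and -0.39, limma adjusted p = 0.0101). Over all features 5.33% fell with WIZ siRNA, and RCOR1 was picked after its value was seen. With median centring 1 of the 12 fell, and with the authors' log10 ratios 1 of 8 measured. With the authors' log2 ratios and with all 9 replicates in the fit 0 fell. Promoter windows of 300 bases (250 before to 50 after the gene start) from RefSeq on GRCh38.p14 were found for 83 of the genes that fell with WIZ siRNA and rose with UNC0638. The left arm was searched as TCAGCACC and the right arm as GGACAGCGC, on both strands. The joined form was CAGCACC, any 2 bases, then GGACAG, and shares letters with both arms. Of the 83 windows 10 (12%) held at least 1 arm, against 2.50% of 14788 windows of tested genes and 2.30% of all 27305 promoters in the table. The joined form was in 2 of the 83 (2.41%) and in 11 of the 14788 (0.0744%). These are 3 of 16 motifs searched, and were chosen for print after their shares were seen. A match is a description of letters. The windows below show the matches in capitals, to let the arms be compared between genes that lay lower with WIZ siRNA than with UNC0638.
SCG3 left arm, chr15:51681501-51681530, plus strand: tcacaggaactTCAGCACCcacagggcgga
SCG3 right arm, chr15:51681518-51681547, plus strand: cccacagggcGGACAGCGCtcccctctacc
UNC13A left arm, chr19:17688330-17688359, minus strand: tccgcgcccccGGTGCTGAaccaagatggc
UNC13A right arm, chr19:17688346-17688375, minus strand: gccacgtcagGCGCTGTCCgcgcccccggt
VGF right arm, chr7:101165559-101165588, minus strand: ggaggcgcggGCGCTGTCCagcgtgctgaa
BSN right arm, chr3:49554346-49554375, plus strand: cgtcggccctGGACAGCGCatgcgcgggcg
OGDHL joined arms, chr10:49762417-49762446, minus strand: gggccgcCAGCACCGTGGACAGcgccagga
TMEM179 joined arms, chr14:104604887-104604916, minus strand: ccaggagCTGTCCGCGGTGCTGaccgcagg

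In SCG3 the left arm starts 9 bases and the right arm 25 bases after the gene start, in the same orientation. UNC13A, which primes synaptic vesicles for release, has both arms on the opposite strand, starting 6 bases after and 11 bases before the gene start. UNC13A lay at -0.38 and -0.32 with WIZ siRNA and at 0.89 and 0.57 with UNC0638, and BSN, a scaffold of the presynaptic zone, at -0.95 and -1.13 against 0.44 and 0.29. The joined arms stood in OGDHL, a mitochondrial oxoglutarate dehydrogenase-like gene (-0.43 and -0.36 against 0.69 and 0.53), and in TMEM179 (-0.29 and -0.18 against 0.76 and 0.66). Each of these 6 genes was below 0 in both WIZ siRNA replicates and above 0 in both UNC0638 replicates. The class they were taken from nearly requires this.

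HOX genes, which set position along the body axis and are a target of Polycomb silencing, lay higher with WIZ siRNA than with UNC0638. Of 39 measured, 16 lay higher and 2 lower, against 1.38% and 3.04% of all features. The median difference was 0.31 against 0.02 over all features. WIZ siRNA raised 17 and lowered 3, against 3.71% and 5.33% of all features. UNC0638 raised 0 and lowered 4, against 2.08% and 2.24% of all features. HOXB2 (0.37 and 0.41 against -0.41 and -0.20) and HOXB4 (0.23 and 0.30 against -0.22 and -0.37) moved in both, in opposite directions, with differences of 0.69 and 0.56 (SE 0.09 and 0.08, limma adjusted p = 0.00506 and 0.00946). HOXA5 (0.73 and 0.66 against -0.04 and 0.10) and HOXA10 (0.67 and 0.53 against -0.03 and -0.10) rose with WIZ siRNA alone, each with a difference of 0.67 (SE 0.08). The other probe of HOXA10 gave 0.24 and that of HOXB2 0.64. The exceptions were HOXB13, with a difference of -0.64 (SE 0.09, limma adjusted p = 0.00835), and HOXC13, both at the posterior end of their clusters.

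The HOX values depended on the orientation. Under WIZ siRNA the median of the HOX list was 0.35 and 0.29 on the first arrays and 0.0009 and 0.03 on the dye-swap arrays, and the neuronal median was -0.20 and -0.16 in Cy3 and -0.11 and -0.11 in Cy5. HOXA5 read 1.18 and 1.07 in Cy3 and 0.29 and 0.25 in Cy5 with WIZ siRNA, and HOXA10 read 1.24 and 1.03 in Cy3 and 0.11 and 0.03 in Cy5. With the dye-swap arrays alone the differences of HOXA5 and HOXA10 were 0.12 and 0.07 and did not pass. HOXB2 was dye-dependent under UNC0638, at 0.02 and 0.24 in Cy3 and -0.84 and -0.64 in Cy5. In the fit with all 9 replicates and with the authors' log2 ratios 0 of 39 HOX genes differed in limma. Without WIZ siRNA replicate 1 or 2, 9 and 10 lay higher. The median stayed above 0 in every setting, from 0.17 with the dye-swap arrays alone to 0.48 in the authors' log10 table.

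**Figure D5:**
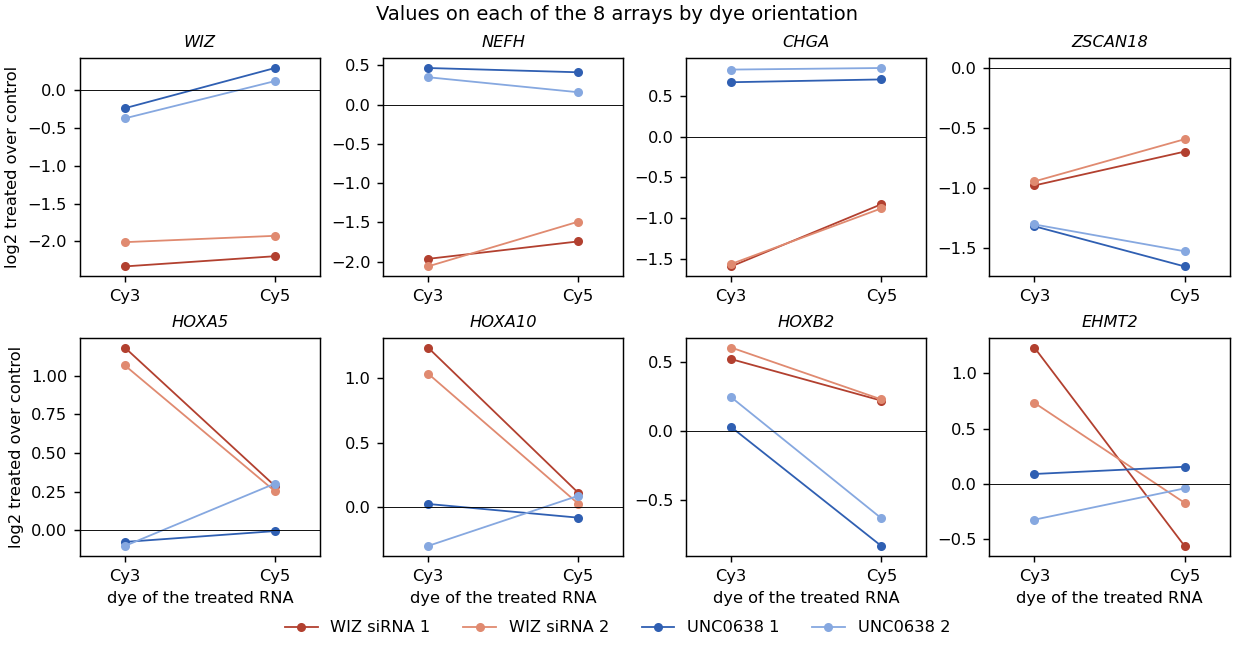
Log2 ratio of treated over control on each of the 8 arrays for 8 genes, by the dye of the treated RNA, with a line joining the arrays of a replicate. WIZ, NEFH, CHGA and ZSCAN18 keep the order of the treatments in both orientations, while HOXA5, HOXA10 and EHMT2 under WIZ siRNA lie far apart between Cy3 and Cy5.

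NKX6-2, HOXB2 and HOXB4 are 3 of the 13 features that rose with WIZ siRNA and fell with UNC0638. HAND2, a factor of heart and limb, lay at 0.38 and 0.31 against -0.35 and -0.50, and SP5, a target of Wnt signalling, at 0.21 and 0.31 against -0.36 and -0.46. PLCXD1 (0.38 and 0.51 against -0.36 and -0.45), DHRS3 (0.20 and 0.50 against -0.51 and -0.26) and the mannosidase gene MAN2C1 (0.24 and 0.28 against -0.18 and -0.34) completed the 8 with the largest smaller mean. MAN2C1 under WIZ siRNA read 0.81 and 0.55 on the first arrays and -0.32 and 0.0002 on the dye-swap arrays. Among 33 Notch and Wnt targets 4 lay higher and 0 lower with WIZ siRNA, against 1.38% and 3.04% of all features. The 4 were SP5, the Notch ligand gene JAG2 (0.62), WNT10B (0.52) and HES7 (0.49). Of the 33, 5 members, among them HES5, moved the same way in both comparisons, against 1.04% of all features. JAG2 had a difference of -0.0080 with the dye-swap arrays alone. Without either WIZ siRNA replicate 2 of the 33 lay higher, and with all 9 replicates 0.

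Many zinc finger genes fell in both comparisons. Of 563 named features with a zinc finger symbol, 22.6% fell and 4.26% rose with WIZ siRNA. With UNC0638 34.3% of them fell and 0.888% rose. Of 97 genes with KRAB or SCAN zinc fingers, a family of DNA-binding repressors that sits largely in clusters on chromosome 19, 57 fell and 1 rose with WIZ siRNA, and 72 fell and 0 rose with UNC0638. In 54 both fell. Over all features 5.33% fell with WIZ siRNA and 2.24% with UNC0638. The median was -0.44 with UNC0638 in replicates 1 and 2 and -0.28 with WIZ siRNA, while UNC0638 replicates 3 to 5 had medians of -0.16, -0.31 and -0.21. Of the 97, 16 differed between the treatments, all of them higher with WIZ siRNA, against 1.38% of all features. The list holds genes already known from earlier results of these data, so its count is a description. With all 9 replicates in the fit 9 fell with WIZ siRNA, 26 with UNC0638, 9 in both, and 0 differed. Without WIZ siRNA replicate 1 or 2, 14 fell with WIZ siRNA in each case, and 5 and 4 differed. Without UNC0638 replicate 2, 35 differed.

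ZSCAN18, a SCAN zinc finger gene, lay at -0.84 and -0.77 with WIZ siRNA and at -1.48 and -1.41 with UNC0638. It was low in all 4 replicates, and lower with the inhibitor by a difference of 0.65 (SE 0.08, limma adjusted p = 0.00346). ZIK1 (-0.76 and -0.68 against -1.24 and -1.21), ZNF136 (-0.28 and -0.32 against -0.93 and -0.98) and ZNF875 (-0.38 and -0.28 against -0.92 and -1.08) had the same order. ZNF776, in contrast, lay at -0.84 and -0.68 against -0.92 and -0.95, where the interval of the difference was -0.01 to 0.37. ZNF701 fell with UNC0638 alone (-0.15 and -0.02 against -0.81 and -0.58).

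Over the whole class of 259 features that fell in both, 103 of 219 with a gene symbol carried a zinc finger symbol (47.0%), against 2.76% of all 20395 named features. Of the 133 with a chromosome in the files, 64 (48.1%) lay on chromosome 19, against 6.56% of all features with one. These shares were looked at after the genes of the class had been seen. Promoter windows of the class held the ETS motif CCGGAAG in 29.5% of 166 cases, on either strand, against 15% of tested genes and 10.7% of all promoters. The same motif stood in 4.82% of the windows of genes that fell with WIZ siRNA and rose with UNC0638. This motif too was picked from the 16 after its share was seen.

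Other genes fell in both without being zinc finger genes. SNX19, a sorting nexin, lay at -0.77 and -0.81 with WIZ siRNA and at -0.97 and -0.83 with UNC0638. The Wnt ligand gene WNT3A lay at -0.85 and -0.69 against -0.79 and -0.65, with an interval of the difference from -0.26 to 0.15, and its other probe had the opposite sign of difference. DHRS2, a mitochondrial reductase (-0.65 and -0.74 against -0.88 and -0.86), and HES5, a Notch target in neural progenitors (-0.60 and -0.78 against -1.06 and -0.65), fell in both, with intervals of the difference of -0.0043 to 0.35 and -0.14 to 0.47. LXN, a carboxypeptidase inhibitor, lay at -1.18 and -1.19 with WIZ siRNA and at -0.34 and -1.11 with UNC0638. The second UNC0638 value averages -0.03 on the first array and -2.19 on the dye-swap array, so its call rests on 1 array, and LXN lay at -0.09, -0.11 and 0.30 in UNC0638 replicates 3 to 5. CDKN1C, an imprinted inhibitor of cyclin-dependent kinases, fell in both and further with WIZ siRNA (-1.14 and -0.97 against -0.72 and -0.44, limma adjusted p = 0.0486). CCND1, the cyclin that drives entry to S phase, did so too (-1.07 and -0.79 against -0.33 and -0.36, limma adjusted p = 0.0177).

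Genes that rose in both were fewer and of mixed kinds. LCP1, an actin bundler of blood cells, lay at 0.83 and 0.68 with WIZ siRNA and at 0.66 and 0.78 with UNC0638. ANXA1, an annexin, had 0.78 and 0.67 against 0.44 and 1.05, and SLC40A1, the iron exporter, 0.50 and 0.53 against 0.52 and 0.65. For LCP1, ANXA1 and SLC40A1 the replicates of the treatments overlapped, and the intervals of the differences were -0.16 to 0.24, -0.41 to 0.37 and -0.25 to 0.11. ALDH1A1, a retinal dehydrogenase, rose more with UNC0638 (1.40 and 1.15 against 0.45 and 0.53), with a difference of -0.79 (SE 0.10, limma adjusted p = 0.00415), and so did the growth factor gene EGF (0.90 and 0.90 against 0.46 and 0.50). The other probe of ALDH1A1 gave a difference of -0.36. FGFBP1, EGR1 and SPANXN3 rose in both, with differences of -0.41, -0.17 and -0.26 that did not pass. SPANXN3 control RNA was above background on 2 of 4 control siRNA arrays and 2 of 4 DMSO arrays. The 48 promoter windows of the class held a median of 5.5 CpG pairs, against 23 in the windows of tested genes.

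Genes of the ATF4 programme, which answers amino acid shortage and includes serine synthesis, held rises with both treatments. Among all features 3.71% rose with WIZ siRNA, 2.08% rose with UNC0638, and 1.04% changed the same way in both. Of 38 genes of the programme measured, 11 rose and 0 fell with WIZ siRNA, and 10 rose and 0 fell with UNC0638, with 6 in both. The 6 included ATF3, a stress transcription factor (0.49 and 0.41 against 0.34 and 0.77), the cystine transporter SLC7A11 (0.37 and 0.35 against 0.59 and 0.48) and CHAC1, which degrades glutathione (0.31 and 0.38 against 0.89 and 0.62). The list's median under WIZ siRNA was 0.40 and 0.23 on the first arrays and -0.14 and -0.05 on the dye-swap arrays, which alone called 9 up and 8 down. The WIZ siRNA side also rested on both replicates, with 0 rises left without replicate 1 and 1 without replicate 2, and 0 with all 9 replicates in the fit, where UNC0638 raised 2. NUPR1, a stress regulator of chromatin, differed, at 0.26 and 0.23 with WIZ siRNA and 1.23 and 1.40 with UNC0638 (difference -1.07, SE 0.08, limma adjusted p = 0.000439). SLC6A9 was the other member that differed (-0.46), with -0.09 in its other probe. In cholesterol synthesis, 5 of 35 rose with WIZ siRNA and 3 with UNC0638, 2 of them in both, and 0 differed in limma, with 6 at an unadjusted p under 0.05.

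Liver, blood cell and germline genes held more rises with UNC0638 than with WIZ siRNA. Over all features 2.08% rose with UNC0638 and 3.71% with WIZ siRNA, and 3.04% lay lower with WIZ siRNA than with UNC0638. Among 30 liver-type genes 6 rose with UNC0638 and 1 with WIZ siRNA, and 6 lay lower with WIZ siRNA than with UNC0638. Besides MAT1A they included the noncoding RNA HULC (2.02 and 2.34 against 0.34 and 0.27), the bile acid carrier FABP6 (1.18 and 1.90 against 0.28 and 0.22) and the fibrinogen chain FGG (1.22 and 1.44 against 0.07 and 0.04). The DMSO control of HULC and FGG was above background on 2 of 4 arrays, so those ratios rest on values near the background. Of 35 blood cell markers 9 rose with UNC0638 and 3 with WIZ siRNA, and 5 lay lower with WIZ siRNA, led by the sialic acid receptor CD33, which was opposed (-0.63 and -0.63 against 1.27 and 1.24), and the growth factor receptor CSF1R (0.13 and 0.07 against 1.24 and 1.44). CSF1R control RNA too was above background on 2 of 4 DMSO arrays. For CD33 the WIZ siRNA RNA was above background on 2 of 4 arrays, so its fall rests on values near the background. With all 9 replicates in the fit 3 liver-type genes and 3 blood cell markers lay lower.

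Of 32 germline genes 7 rose with UNC0638 and 0 with WIZ siRNA, and 9 lay lower with WIZ siRNA, with 5 and 3 left without WIZ siRNA replicate 1 or 2 and 0 with all 9 replicates in the fit. Of all features 2.08% rose with UNC0638, 3.71% rose with WIZ siRNA and 3.04% lay lower with WIZ siRNA. STK31, a testis kinase, lay at 0.70 and 0.90 against 0.07 and 0.15 with WIZ siRNA, a difference of -0.69 (SE 0.09, limma adjusted p = 0.00512). Its other probe gave -0.43. SSX1, MAGEB6 and XAGE2 were also called lower, but each was not well above background on any of the 4 arrays of at least 1 RNA group, so no size is given for the differences. The XAGE2 probe, which also matches XAGE2B, was above background on 0 of 4 DMSO arrays and 3 of 4 UNC0638 arrays, and was at least 1.44-fold higher with UNC0638, taken from channel values that dye bias can reach.

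Interferon-stimulated genes were divided. Of all features 2.08% rose and 2.24% fell with UNC0638, and 3.71% rose and 5.33% fell with WIZ siRNA. Between the treatments 3.04% lay lower with WIZ siRNA and 1.38% higher. Of 42 interferon-stimulated genes measured, 6 rose and 2 fell with UNC0638, and 3 rose and 3 fell with WIZ siRNA. Against UNC0638, 6 of the 42 lay lower and 1 higher with WIZ siRNA. Without WIZ siRNA replicate 1 or 2, 2 and 3 lay lower, without either UNC0638 replicate 10, and with all 9 replicates 0. The RNA sensor IFIH1 (0.03 and 0.05 against 0.79 and 0.70) and the helicase DDX60 (-0.09 and -0.07 against 0.37 and 0.50) rose with UNC0638 alone, and IFIT5 fell with WIZ siRNA and did not pass with UNC0638 (-0.51 and -0.45 against 0.14 and 0.29). Of 20 fibroblast and matrix genes 4 lay lower with WIZ siRNA and 0 higher, among them the opposed genes CCN2, a matricellular growth factor (-0.26 and -0.45 against 0.84 and 0.52), and SPARC, a collagen-binding protein (-0.51 and -0.35 against 0.29 and 0.46). Without WIZ siRNA replicate 1, 2 lay lower, and with all 9 replicates 1.

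The remaining lists are given beside the 4.42% of all features that differed. Of 33 cell cycle inhibitors and p53 targets 4 lay lower with WIZ siRNA and 1 higher, among them TP53I3 (-0.55 and -0.64 against -0.10 and 0.08) and DDB2 (-0.66 and -0.54 against -0.25 and 0.01), both raised by p53 in other settings. The other probe of TP53I3 gave a difference of -0.58, against -0.59, and that of DDB2 -0.17, against -0.48. Without either WIZ siRNA replicate 1 lay lower, and with all 9 replicates 0. Of 45 mitosis and S phase genes 2 lay higher and 1, CCND1, lower. Of 33 imprinted genes 1, CDKN1C, lay lower. Of 35 clustered protocadherins 1 lay higher and 1 lower, and both probes match many genes of their cluster. In glycolysis and hypoxia 1 of 36 differed, PFKFB4 (0.42), and among autophagy and lysosome genes 2 of 33, with ULK1 (0.43) higher. The values of PFKFB4, ULK1 and TP53INP2 had the opposite sign with the dye-swap arrays alone. For 56 histone genes and 27 housekeeping genes 0 differed in limma, with 4 and 2 at an unadjusted p under 0.05, and the largest housekeeping difference was 0.31 for REEP5 (limma adjusted p = 0.098).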

How the data were processed

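The authors deposited spot and background intensities, uncorrected per the file headers. The files' log2 ratios and a table of log10 ratios for the whole series were made by the authors, by steps the sources used here do not give. The table's centring and filter are unknown, and its column medians on the 8 arrays ran from -0.01 to 0.00818. The log10 base was judged from its slope on the files' log2 ratios (-0.432 to -0.348 on the 8 arrays, with r from -0.918 to -0.877). Here, intensities were corrected with normexp (offset 50) and loess within arrays (limma 3.58.1, R 4.3.3), with weight 0 for the 4259 control spots. Probes more than 2.6 background SDs above background on 50% of the arrays of any of 4 RNA groups were kept (38179 of 42405). The brightest probe per gene gave 31533 features, 20395 with a symbol. Of the probes, 25678 were named through a RefSeq accession, 1956 through a symbol or synonym and 1606 as in the files, while 13165 had no symbol and 467 match several. Swapped pairs were averaged and 4 replicates fitted (lmFit and eBayes, no covariate, 6.25 prior degrees of freedom), with Benjamini-Hochberg adjustment and a threshold of 0.05. The fit was tested on simulated data. Genes were named by size of difference, by direction class (largest smaller mean) and by list (up to 4). Those named by size had to pass, without overlap of replicate values and with the same sign of difference in both dye orientations. VGF, CHGB, BEX1, CPLX1, STMN2, STMN3, SYN1, SV2A, TMEM59L, the genes of promoter windows, HOXC13, REST, RCOR1, ATF3, SLC7A11 and CHAC1 were chosen after their values were seen. Members and lists were chosen with earlier results of these data known. The number of arrays limits the precision. Replicates are called biological in the labels, and p-values measure the spread between them. Slide and scan batch are not given in the sources used here. Some results are not reported here.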

Additional observations from a re-analysis of the deposited data

How the results depend on the processing

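Across 17 alternatives, 1350 values of named genes kept their direction and side of the threshold, 210 no longer passed, 27 passed anew, and 22 that had not passed changed sign or moved. With the dye-swap arrays alone the difference reversed for PCDHGA8 (-0.12), TP53INP2 (-0.0079), PFKFB4 (-0.058), MCM4 (-0.22), ULK1 (-0.0097) and JAG2 (-0.0080). It reversed for LYG2 (0.22) with probes well above background in both channels of all 8 arrays. Counts follow in the order features that differed, higher, lower, changed with WIZ siRNA, changed with UNC0638, changed in both the same way, and in both in opposite ways, beside 1393, 434, 959, 2850, 1363, 329 and 142 as reported. They were 235, 8, 227, 422, 512, 51 and 25 with the authors' log2 ratios, 238, 31, 207, 576, 370, 83 and 29 with the authors' log10 table, and 162, 5, 157, 224, 288, 25 and 10 with all 9 replicates. They were 4916, 2757, 2159, 10914, 2529, 1234 and 217 with the first arrays alone, and 4162, 1852, 2310, 8887, 5316, 1998 and 354 with the dye-swap arrays alone. Higher features were 31.2% of those that differed, 18.6% with median centring (252 features), 3.40% with the authors' log2 ratios, 13% with the log10 table, 3.09% with all 9 replicates, and 16.9% and 18.8% without WIZ siRNA replicate 1 or 2. They were 56.1% with the first arrays alone, 44.5% with the dye-swap arrays alone, 44.9% with the replicate block, and 53.6% and 44.2% without UNC0638 replicate 1 or 2. Gene lists with a median below 0 were 9, 15 with median centring and 16 with the dye-swap arrays alone. Leaving out each replicate in turn gave 597 to 4162, 101 to 2231, 496 to 1931, 562 to 6652, 1257 to 2395, 54 to 344 in opposite ways and 86 to 752 the same way; a treatment's lone replicate was then assumed to vary like the other treatment. The cause was not tested for any of these. Background handling, scaling, dim-probe filters, averaging of probes and a fit of the 8 arrays with dye terms kept the counts within 1.5 times.

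The labels do not say whether equal replicate numbers pair the samples. The differences between replicates 1 and 2 correlated at 0.0025 between the treatments. No shift shared by replicate number was thus seen, which does not settle the pairing. With the number as a replicate block the counts were 2897, 1300, 1597, 4614, 2180, 565 and 235, from 1 residual degree of freedom, and all 1393 features passed again. With 2 replicates a treatment, the spread is mostly borrowed across features, and brightness near the background limits the liver, blood and germline genes.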
